A study of Homo sapiens with 14 samples.

Results

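The mitotic and replication genes described here are 45 named genes of the cell division cycle, and all 45 were found by symbol and gene ID among the 63677 gene IDs of the bulk RNA-seq tables and in the table of gastruloid nuclei. They were sorted by role into 13 replication genes (origin licensing and DNA synthesis), 21 mitotic genes (entry, checkpoint, spindle and chromosomes), 9 G1 cyclins and kinases and 2 CDK inhibitors. Bulk RNA-seq was made from 12 libraries of human embryonic stem cells (hESC) and their derivatives, labelled as line H9. The groups were 2 libraries of undifferentiated hESC, 3 of endoderm expressing dCAS9-KRAB without sgRNA, 3 of endoderm expressing dCAS9-KRAB with an sgRNA directed at LTR5 (CRISPRi), 2 of foregut without sgRNA and 2 of foregut CRISPRi. Endoderm was induced with activin A at 100 ng/ml for 3 days, together with the GSK-3 inhibitor CHIR-99021 at 5 µM on the first day and 0.5 µM on the second, and foregut cells then received 3 more days of a commercial pancreatic differentiation kit. dCAS9-KRAB is a nuclease-dead Cas9 fused to a repressor domain. It was delivered by lentivirus to cells that were then selected with puromycin, and LTR5 names the long terminal repeats of the HERVK family of endogenous retroviruses. The label of the hESC libraries names neither dCAS9-KRAB nor an sgRNA. Gastruloids, described as line H9, were aggregates seeded with 800 cells per well and harvested at 72 h. They were exposed to CHIR-99021 at 3 µM, with a Rock inhibitor at aggregation, and were read as single nuclei from 1 preparation.

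Cells copy their DNA once per division. MCM helicases are loaded on origins by CDC6 and CDT1 while geminin (GMNN) blocks reloading, and PCNA, ribonucleotide reductase (RRM1, RRM2) and thymidylate synthase (TYMS) serve the copying itself. Mitosis is then driven by cyclins A and B with CDK1, the Aurora and Polo kinases and the spindle checkpoint, whose genes are repressed in resting cells and transcribed late in the cycle through CHR elements and CCAAT boxes, whereas many replication genes are transcribed earlier through E2F sites. Pluripotent stem cells are known for a short G1 phase.

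Each library held between 11583063 and 37152434 reads in genes, of which mitochondrial genes took 8.299 to 34.66%. Levels are given as counts per 1000000 reads (CPM) scaled by TMM across the 12 libraries. Endoderm markers summed to between 22.06 and 35.16 CPM in hESC, with SOX17, GATA4 and GATA6 at 0, and to between 5347.89 and 5984.88 CPM in endoderm without sgRNA. Sums of pluripotency markers overlapped, from 1519.86 to 2281.65 CPM in hESC and from 1395.55 to 1713.28 CPM in endoderm without sgRNA. The single markers did not move together. SOX2 went from 151 and 159 CPM in hESC to 29, 24.97 and 15.8 CPM in that endoderm. DPPA4 and ZFP42 were also lower in each of its libraries. POU5F1 was higher, at 288 and 562 against 824, 713 and 665 CPM, and NANOG and LIN28A overlapped. As a sum, the markers of foregut did not set the libraries with that label apart. Their sums were 70.54 to 78.72 CPM in endoderm and 78.54 to 113.6 CPM in foregut without sgRNA, and 49.26 to 81.65 and 37.5 to 55.34 CPM with it. PDX1, of foregut and pancreas, stood at 27.3 and 24.4 CPM in foregut without sgRNA and 2.73 and 7.76 CPM with it, and at no more than 0.0459 CPM in any endoderm library. The name foregut is therefore used only as the label. In 4 of the 12 libraries, genes that separate donors did not match the labelled line, and the growth protocol of the foregut libraries names H1 beside H9, so that in comparisons of foregut with endoderm the stage and the cell line cannot be told apart. The foregut samples were also registered apart from the hESC and endoderm samples, so that a difference in preparation cannot be told apart from stage either. The media and status fields of the foregut libraries also contradict their titles, and groups were taken from the titles. The methods of the study call its RNA-seq replicates biologically independent, but no label names the culture of a library, and the p-values measure only the spread between these libraries, part of which may be technical.

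**Figure D1:**
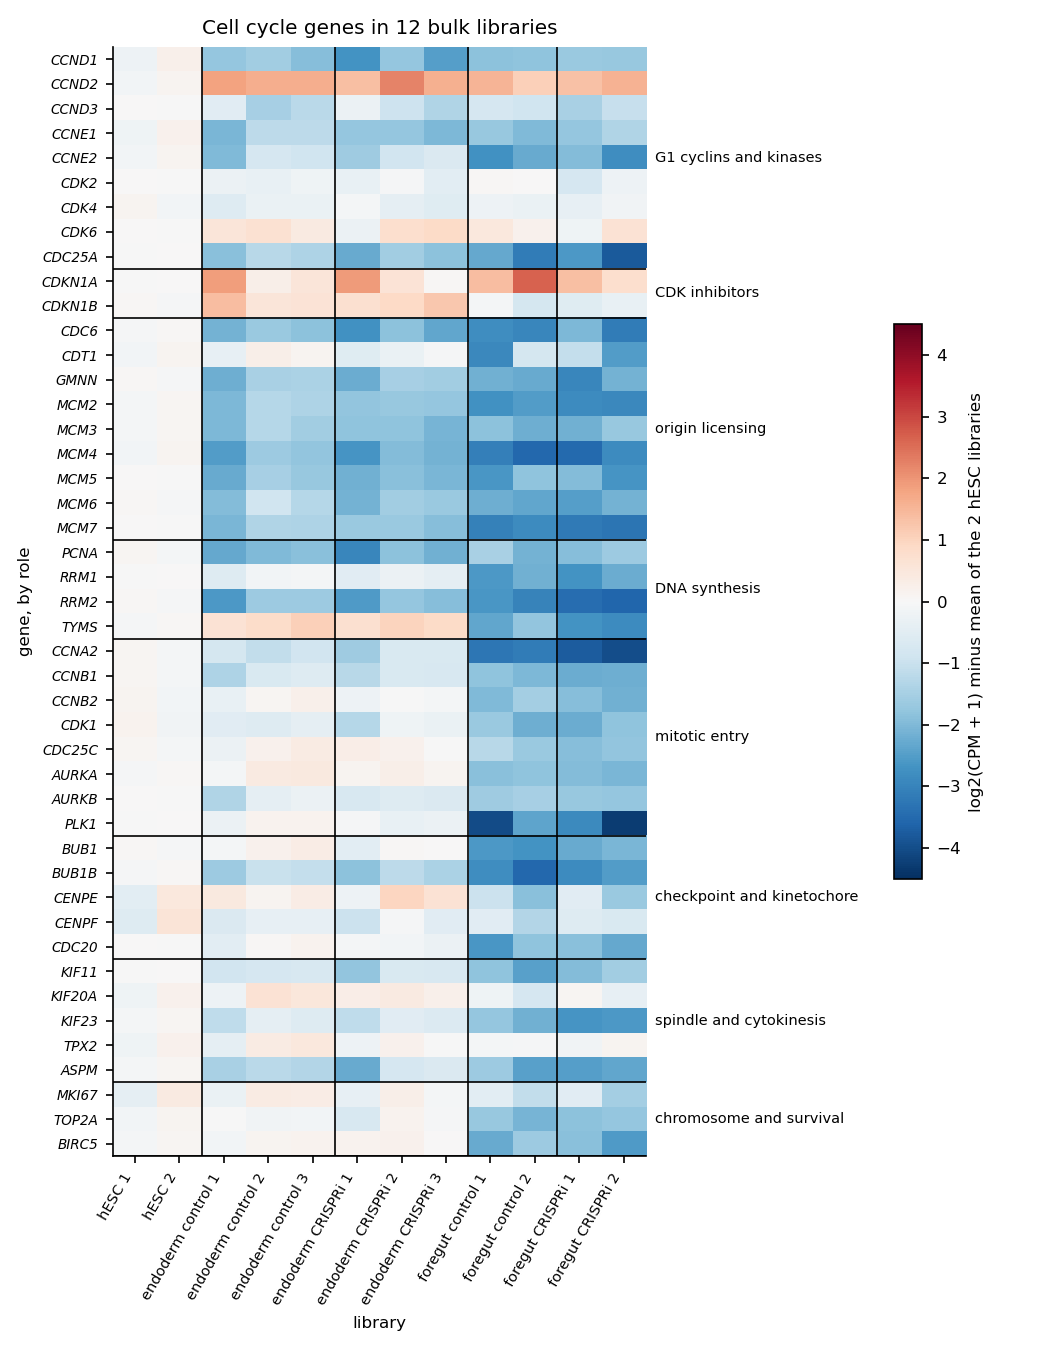
Heat map of the cell cycle genes (rows, by role) in the 12 bulk libraries (columns); the colour is log2(CPM + 1) minus the mean of the 2 hESC libraries. Replication genes were lower than in hESC in all 10 endoderm and foregut libraries for most rows, and most mitotic genes were lower mainly in the 4 foregut libraries.

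Promoter sequences are shown for 5 mitotic genes that were lower in foregut in both settings. Of these, 3 hold an exact match to the CHR element (TTTGAA) and 2 (CCNA2 and BUB1) hold none, and variant forms were not searched. Sequences are also shown for 3 replication genes that were lower in endoderm than in hESC. They were chosen after the motifs and values were seen. Windows from 250 bases before to 50 after the start site were found by symbol for 36 of the 45 genes (RefSeq, GRCh38.p14). The CHR element (TTTGAA, either strand) was present in 11 of 18 mitotic promoters (61.1%), in 1 of 11 replication promoters (9.09%) and in 15.4% of all 27305 promoters of this length. The CCAAT box (CCAAT, either strand) was present in 15 of 18 mitotic promoters (83.3%), 7 of 11 replication promoters (63.6%) and 35.7% of all promoters. An E2F motif (TTTGGCGC or TTTCGCGC, either strand) was present in 1 of 18 mitotic promoters (5.56%), 5 of 11 replication promoters (45.5%) and 1.18% of all promoters. Each sequence below is the 100 bases before the start site, 5′ to 3′ along the gene, with these motifs in capitals. In MCM6 2 E2F motifs overlap on opposite strands. These matches are letters in a window and no binding was measured.
CCNB2, chr15:59105046-59105145, + strand: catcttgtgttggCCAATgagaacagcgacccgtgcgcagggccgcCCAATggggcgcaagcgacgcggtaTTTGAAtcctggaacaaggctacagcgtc
PLK1, chr16:23678789-23678888, + strand: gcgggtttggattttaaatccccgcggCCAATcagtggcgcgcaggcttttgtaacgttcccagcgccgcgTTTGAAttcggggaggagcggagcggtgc
CDC20, chr1:43358881-43358980, + strand: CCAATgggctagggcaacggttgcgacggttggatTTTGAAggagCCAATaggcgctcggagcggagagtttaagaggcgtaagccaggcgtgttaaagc
CCNA2, chr4:121823884-121823983, - strand: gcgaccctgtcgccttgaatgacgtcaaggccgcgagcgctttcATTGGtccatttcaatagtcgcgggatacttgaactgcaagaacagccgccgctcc
BUB1, chr2:110678064-110678163, - strand: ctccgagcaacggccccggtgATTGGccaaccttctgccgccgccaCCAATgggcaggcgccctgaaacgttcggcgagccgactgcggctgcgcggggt
MCM6, chr2:135876444-135876543, - strand: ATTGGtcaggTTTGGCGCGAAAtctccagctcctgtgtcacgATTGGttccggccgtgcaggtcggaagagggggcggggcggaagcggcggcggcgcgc
MCM7, chr7:100101398-100101497, - strand: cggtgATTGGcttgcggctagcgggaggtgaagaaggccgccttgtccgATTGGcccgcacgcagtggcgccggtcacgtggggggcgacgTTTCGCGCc
PCNA, chr20:5126623-5126722, - strand: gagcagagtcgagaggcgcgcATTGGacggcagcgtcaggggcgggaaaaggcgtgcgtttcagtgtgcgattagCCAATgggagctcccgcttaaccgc

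Accessible chromatin of the gastruloid nuclei covered the start site of all 36 genes with a window, against 55.2% of all promoters, so that this readout did not separate mitotic from replication genes.

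The first comparison asked how the genes changed when hESC became endoderm. The hESC label names no dCAS9-KRAB, so that stage and a difference in dCAS9-KRAB or its puromycin selection cannot be told apart here. The replication genes fell: 10 of 13 were lower in endoderm without sgRNA than in hESC, 1 was higher and 2 did not pass the test. Their summed level was 3181 and 3218 CPM in the hESC libraries and 944, 1479.9 and 1411 CPM in the endoderm libraries, so that the groups did not overlap. Of all 45 genes, 22 (48.9%) passed as lower and 5 (11.1%) as higher, beside 18.3% and 19.6% of the 20818 genes tested, and the median log2 fold change of the 45 was -0.57 beside 0.0448 over all genes (edgeR quasi-likelihood test, Benjamini-Hochberg adjusted p under 0.05). The mitochondrial share, a sign of RNA quality, moved with this step, at 25.5 and 16.9% in hESC and 8.30, 13.7 and 14.4% in endoderm. Without mitochondrial genes in library sizes and tests the same numbers of replication genes (10) and mitotic genes (7) were lower, and the part of RNA quality was not tested.

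PCNA, the sliding clamp of DNA polymerases, stood at 315 and 275 CPM in hESC and at 58.8, 73.5 and 78.4 CPM in endoderm (log2 fold change -2.07 ± 0.19 SE, edgeR adjusted p = 4.67e-07). The lowest hESC library was above the highest endoderm library. Here and below, overlap between groups is described for named genes, many of them named because they passed. The share of all genes without overlap was not counted, so these statements have no background beside them. MCM4, a subunit of the replicative helicase, went from 274 and 318 to 50.3, 94.9 and 86.5 CPM (log2 fold change -1.94 ± 0.23 SE, edgeR adjusted p = 8.88e-06), again without overlap. CDC6, which loads that helicase, went from 109 and 115 to 24.6, 34.5 and 30.02 CPM (log2 fold change -1.91 ± 0.19 SE, edgeR adjusted p = 1.63e-06), and RRM2, the small subunit of ribonucleotide reductase, from 307 and 284 to 48, 94.01 and 95.1 CPM (log2 fold change -1.90 ± 0.24 SE, edgeR adjusted p = 1.82e-05). For both, every endoderm library was below both hESC libraries. All 6 MCM genes and GMNN passed as lower, with log2 fold changes from -1.94 (MCM4) to -1.32 (MCM6). The replication genes did not all move together. TYMS, which makes thymidylate, was higher in endoderm, at 156, 176 and 212 CPM against 95.4 and 103 CPM in hESC (log2 fold change 0.87 ± 0.19 SE, edgeR adjusted p = 0.00211), and RRM1 (-0.25) and CDT1 (0.03) did not pass.

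Most mitotic genes did not pass the test in this step. Of 21, 7 were lower, none was higher and 14 did not pass, and the median log2 fold change was -0.07. Their summed level was 2633 and 2798 CPM in hESC and 1853, 2399.6 and 2517 CPM in endoderm, with endoderm replicate 1 the lowest library. MKI67, the antigen used to stain dividing cells, stood at 64.98 and 113 CPM in hESC and 69.6, 111 and 108 CPM in endoderm (log2 fold change 0.11 ± 0.25 SE, edgeR adjusted p = 0.765), and the groups overlapped. TOP2A, which untangles chromosomes, stood at 238 and 277 and 256, 231 and 238 CPM (log2 fold change -0.09 ± 0.18 SE, edgeR adjusted p = 0.706), also with overlap. Among those that passed, ASPM, a spindle pole protein, went from 55.2 and 61.96 to 20.9, 24.6 and 22.7 CPM (log2 fold change -1.36 ± 0.19 SE, edgeR adjusted p = 3.75e-05). BUB1B, a checkpoint kinase, went from 98.6 and 105 to 32.1, 50.4 and 48.2 CPM (log2 fold change -1.23 ± 0.21 SE, edgeR adjusted p = 2.43e-04), and neither gene overlapped between groups. CCNA2, cyclin A, fell from 251 and 223 to 135, 109.8 and 131 CPM (log2 fold change -0.92 ± 0.18 SE, edgeR adjusted p = 7.58e-04). CCNB1, cyclin B1, fell from 345 and 313 to 125, 202 and 217 CPM (log2 fold change -0.86 ± 0.22 SE, edgeR adjusted p = 0.00507), a call that was lost without hESC replicate 1 (-0.80, adjusted p = 0.0887, edgeR). KIF11, the motor that separates spindle poles, fell from 112 and 117 to 62.03, 67.8 and 68.3 CPM (log2 fold change -0.79 ± 0.18 SE, edgeR adjusted p = 0.00204). Each of these 3 separated the groups. CDK1 and KIF23 were the others that passed, at log2 fold changes of -0.50 and -0.69.

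The D cyclins, which start G1 with CDK4 and CDK6, went in opposite directions. CCND1 fell from 134 and 181 to 46.4, 51.5 and 40.3 CPM (log2 fold change -1.77 ± 0.20 SE, edgeR adjusted p = 4.06e-06). CCND2 rose from 46.9 and 54.8 to 179, 159 and 159 CPM (log2 fold change 1.70 ± 0.19 SE, edgeR adjusted p = 4.96e-06), and CCND3 fell from 33.4 and 32.3 to 22.5, 11.02 and 13.4 CPM (log2 fold change -1.06 ± 0.26 SE, edgeR adjusted p = 0.00443). None of the 3 overlapped between hESC and endoderm. CCNE1, cyclin E, which carries cells from G1 into S phase, fell from 27.9 and 37.5 to 6.96, 13.7 and 13.6 CPM (log2 fold change -1.52 ± 0.27 SE, edgeR adjusted p = 3.67e-04). Its paralog CCNE2 fell from 5.38 and 6.47 to 0.746, 3.08 and 2.68 CPM (log2 fold change -1.45 ± 0.41 SE, edgeR adjusted p = 0.0109), and CDC25A, the phosphatase that activates CDK2, from 82.8 and 86.9 to 22.4, 35.2 and 32.2 CPM (log2 fold change -1.50 ± 0.21 SE, edgeR adjusted p = 3.79e-05). These 3 were also separated. CDK6 was at 42.4 and 41.2 CPM in hESC and 60.7, 67.9 and 56.1 CPM in endoderm (log2 fold change 0.56 ± 0.19 SE, edgeR adjusted p = 0.0279). CDK4 was at 272 and 232 and 166, 203 and 204 CPM and did not pass (log2 fold change -0.40 ± 0.18 SE, edgeR adjusted p = 0.0977). The inhibitor CDKN1B (p27) rose from 25.2 and 23.1 to 64.2, 35.6 and 37.8 CPM (log2 fold change 0.93 ± 0.25 SE, edgeR adjusted p = 0.00862). CDKN1A (p21) was at 3.29 and 3.42 CPM in hESC and 15.1, 4.22 and 5.35 CPM in endoderm (log2 fold change 1.30 ± 0.44 SE, edgeR adjusted p = 0.0295), with replicate 1 far above the others, and without that library its log2 fold change was 0.50 with an adjusted p of 0.127 by the same edgeR test. The calls of CDKN1A, CDKN1B, CCND3, CCNE2 and CDK6 were also lost when either hESC library was left out, with the same sign (edgeR adjusted p from 0.0625 to 0.241).

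**Figure D2:**
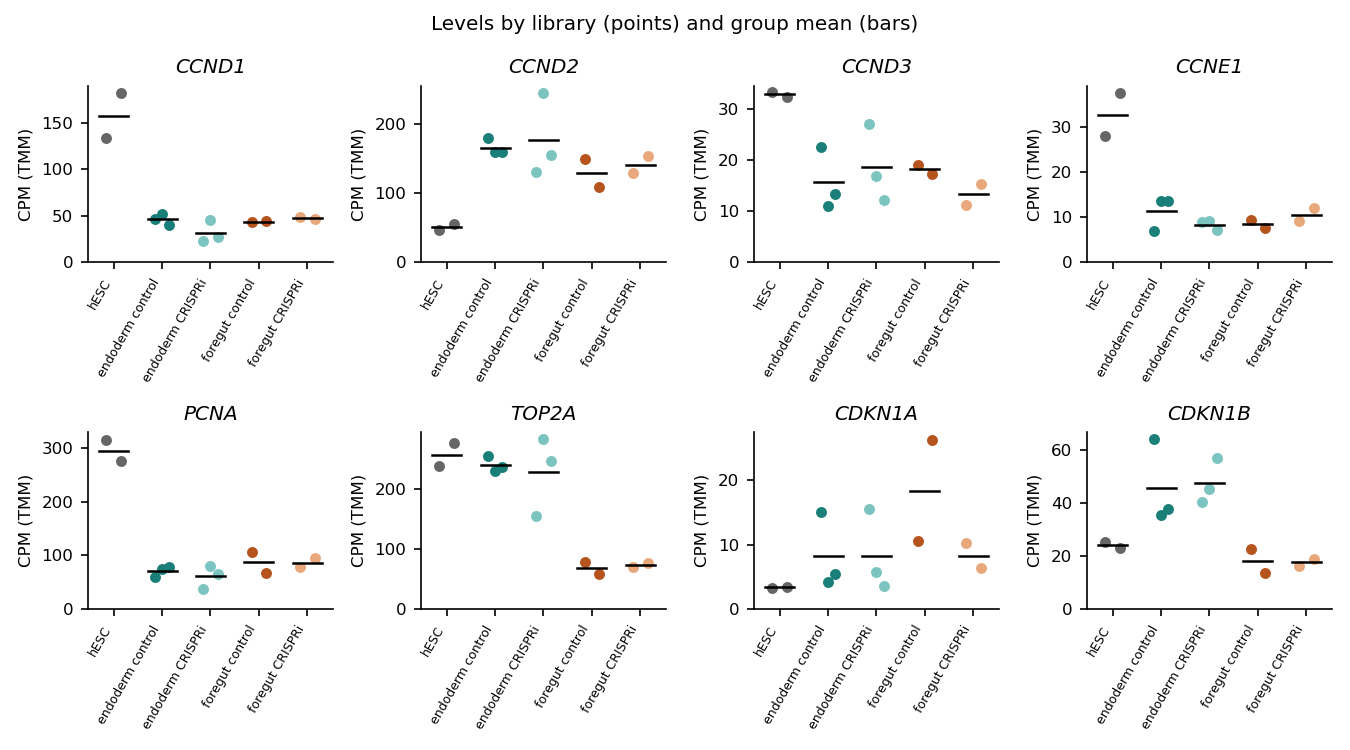
CPM (TMM-scaled) of chosen cell cycle genes in each group; each point is 1 library and each bar the group mean, on axes starting at 0. PCNA separated hESC from every later library, whereas TOP2A separated the 4 foregut libraries from the rest.

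The second comparison followed the genes from endoderm to foregut, once without the sgRNA and once within the CRISPRi lines. Here the mitotic genes fell. Without sgRNA, 17 of 21 were lower in foregut and 4 did not pass. In the CRISPRi lines 14 of 21 were lower, and all 14 were among the 17. Their summed level was 1853, 2399.6 and 2517 CPM in endoderm and 868 and 799.5 CPM in foregut without sgRNA, and 1776, 2388 and 2178 against 838 and 799 CPM with it, and in neither case did the groups overlap. Of the 45 genes, 27 (60%) passed as lower and none as higher without sgRNA, beside 18.0% and 15.9% of the 21466 genes tested. In the CRISPRi lines 20 (44.4%) passed as lower and none as higher, beside 14.9% and 14.1% of 20735 genes. The median log2 fold changes of the 45 were -1.10 and -1.20, beside -0.09 and -0.14 over all genes (edgeR, as above). In bulk RNA, fewer cells in division and less RNA per cell cannot be told apart. The mitochondrial share also moved with this step, from 8.30, 13.7 and 14.4% in endoderm to 28.95 and 17.6% in foregut without sgRNA, and from 9.97, 9.16 and 13.3% to 34.7 and 22.4% with it. Without mitochondrial genes 16 and 14 mitotic genes were lower, and the part of RNA quality was not tested.

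All 8 genes of mitotic entry passed as lower in both settings. PLK1, the Polo kinase, stood at 128, 172 and 171 CPM in endoderm and 8.55 and 29.1 CPM in foregut without sgRNA (log2 fold change -3.04 ± 0.49 SE, edgeR adjusted p = 0.00149). In the CRISPRi lines it stood at 149, 121 and 126 and 20.4 and 6.93 CPM (log2 fold change -3.20 ± 0.47 SE, edgeR adjusted p = 0.00215), and in both settings the foregut libraries were the lower ones and differed widely from each other. CCNA2 went from 135, 109.8 and 131 to 23.8 and 25.7 CPM (log2 fold change -2.33 ± 0.22 SE, edgeR adjusted p = 8.75e-05), and in the CRISPRi lines from 77.5, 148 and 145 to 16.8 and 14.1 CPM (log2 fold change -2.93 ± 0.35 SE, edgeR adjusted p = 8.14e-04). BUB1, the kinase that recruits the checkpoint to kinetochores, went from 114, 138 and 152 to 19.6 and 18.02 CPM (log2 fold change -2.83 ± 0.24 SE, edgeR adjusted p = 4.24e-05). With the sgRNA it went from 87.2, 128 and 125 to 24.5 and 28.5 CPM (log2 fold change -2.03 ± 0.26 SE, edgeR adjusted p = 0.00111). CDC20, the activator of the anaphase-promoting complex, went from 146, 213 and 229.8 to 32.3 and 58.2 CPM (log2 fold change -2.10 ± 0.32 SE, edgeR adjusted p = 0.0012) and from 196, 187 and 170.3 to 55.3 and 40.4 CPM with the sgRNA (log2 fold change -1.88 ± 0.25 SE, edgeR adjusted p = 0.00125). For all 4 genes no foregut library reached any endoderm library of its setting.

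TOP2A and BIRC5 (survivin, of the chromosomal passenger complex) fell in both settings. TOP2A went from 256, 231 and 238 to 79.02 and 59.02 CPM (log2 fold change -1.81 ± 0.21 SE, edgeR adjusted p = 2.86e-04), and with the sgRNA from 155, 284 and 248 to 69.98 and 77.1 CPM (log2 fold change -1.57 ± 0.29 SE, edgeR adjusted p = 0.00578). BIRC5 went from 106, 125 and 131 to 23.6 and 37.03 CPM (log2 fold change -1.98 ± 0.27 SE, edgeR adjusted p = 5.80e-04) and from 129, 134 and 118 to 30.6 and 19.2 CPM (log2 fold change -2.28 ± 0.28 SE, edgeR adjusted p = 9.11e-04). The 2 genes separated foregut from endoderm completely. MKI67 went from 69.6, 111 and 108 to 61.1 and 39.7 CPM without sgRNA (log2 fold change -0.93 ± 0.28 SE, edgeR adjusted p = 0.0328), and from 66.8, 104 and 81.5 to 59.9 and 29.3 CPM with it, where it did not pass (log2 fold change -0.84 ± 0.35 SE, edgeR adjusted p = 0.109). KIF23, a motor of the cytokinetic midzone, went from 23.4, 39.2 and 35.1 to 15.1 and 11.1 CPM (log2 fold change -1.31 ± 0.30 SE, edgeR adjusted p = 0.00957) and from 23.6, 36.2 and 33.8 to 7.52 and 7.98 CPM (log2 fold change -1.94 ± 0.30 SE, edgeR adjusted p = 0.00258). KIF11 went from 62.03, 67.8 and 68.3 to 32.05 and 20 CPM (log2 fold change -1.34 ± 0.26 SE, edgeR adjusted p = 0.00358) and did not pass with the sgRNA, at -0.69. Not all mitotic genes followed. TPX2, which nucleates spindle microtubules, had log2 fold changes of -0.26 and 0.06, CENPF, of the outer kinetochore, -0.41 and -0.11, and KIF20A -0.82 and -0.36, and none of these passed. The call of MKI67 without sgRNA was lost without endoderm replicate 2 (-0.77), endoderm replicate 3 (-0.85) or foregut replicate 2 (-0.60), and that of KIF23 without endoderm replicate 2 (-1.11).

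Among the replication genes, 7 of 13 passed as lower without sgRNA and 5 with it, 4 of them in both. Without endoderm replicate 2, 4 in place of 7 passed. TYMS, higher in endoderm than in hESC, fell furthest among them. It went from 156, 176 and 212 to 19.03 and 27.98 CPM (log2 fold change -2.94 ± 0.27 SE, edgeR adjusted p = 7.62e-05), and with the sgRNA from 163, 199 and 179.9 to 14.5 and 13.1 CPM (log2 fold change -3.64 ± 0.24 SE, edgeR adjusted p = 8.43e-05). RRM1, the large subunit of ribonucleotide reductase, went from 128, 177 and 178 to 31.5 and 41.8 CPM (log2 fold change -2.13 ± 0.26 SE, edgeR adjusted p = 3.13e-04) and from 134, 162 and 143 to 28.6 and 39.8 CPM (log2 fold change -2.03 ± 0.24 SE, edgeR adjusted p = 8.11e-04). For neither gene did the groups overlap in either setting. MCM7 went from 120.1, 198 and 194 to 59.99 and 69.8 CPM (log2 fold change -1.39 ± 0.27 SE, edgeR adjusted p = 0.00379), and with the sgRNA from 158, 158 and 135 to 54.5 and 50.95 CPM (log2 fold change -1.44 ± 0.21 SE, edgeR adjusted p = 0.00221). MCM4 reached 33.9 and 24.3 CPM without sgRNA (log2 fold change -1.40 ± 0.31 SE, edgeR adjusted p = 0.00803), and MCM2 reached 34.3 and 32.6 CPM with it, against 71.3, 75.04 and 73.6 CPM in endoderm (log2 fold change -1.07 ± 0.21 SE, edgeR adjusted p = 0.00716). PCNA did not pass in this step. It stood at 107 and 66.9 CPM in foregut without sgRNA (log2 fold change 0.31 ± 0.25 SE, edgeR adjusted p = 0.344) and at 77.6 and 94.7 CPM with it (log2 fold change 0.56 ± 0.31 SE, edgeR adjusted p = 0.196). MCM5 and MCM3 did not pass in either setting.

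**Figure D3:**
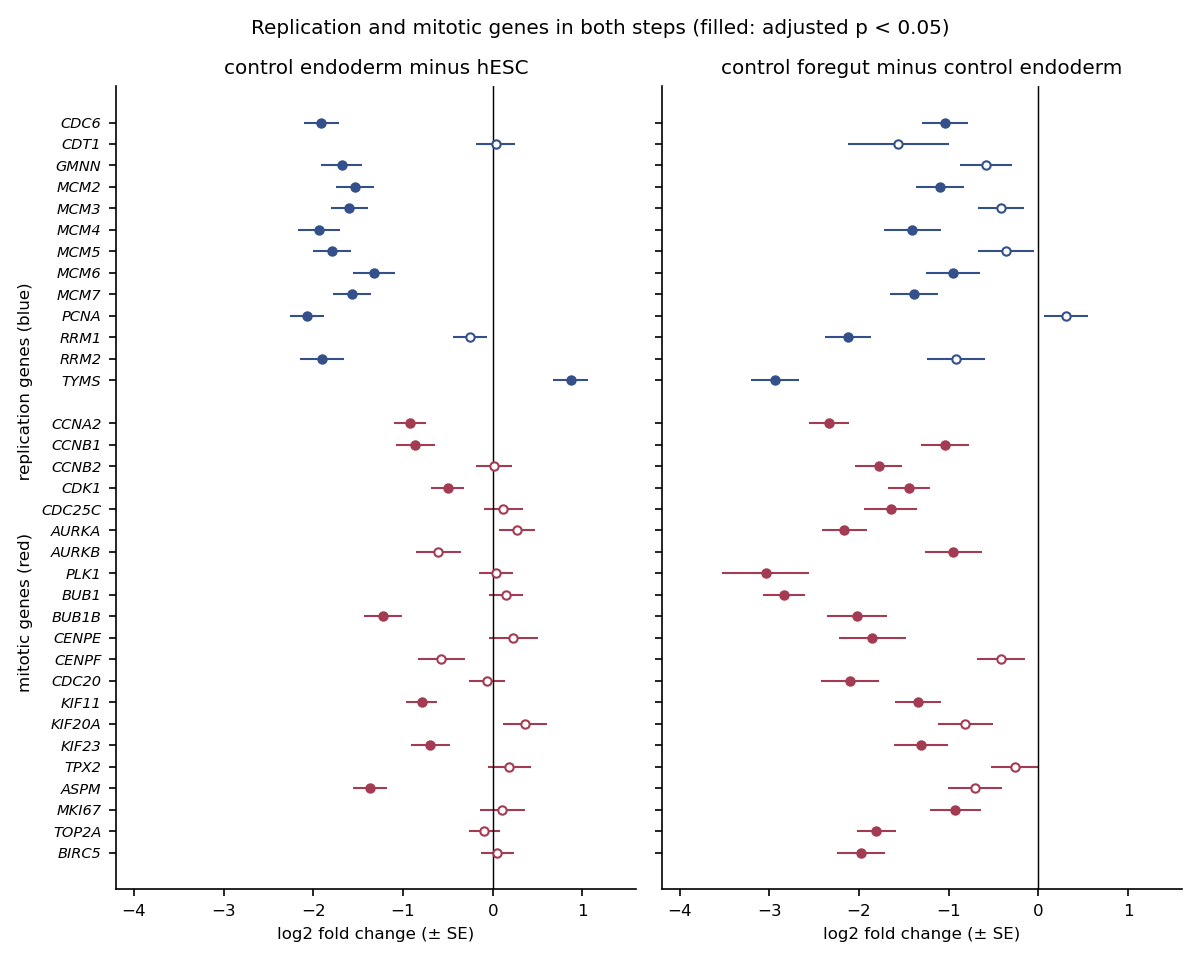
Log2 fold changes with SE of the replication genes (blue) and mitotic genes (red), endoderm without sgRNA against hESC (left) and foregut without sgRNA against that endoderm (right); filled points passed at an adjusted p under 0.05. Replication genes lie mostly below 0 in the endoderm step, and mitotic genes lie mostly below 0 in the foregut step.

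Set side by side, 9 of the 21 mitotic genes were lower in both foregut comparisons and did not pass in endoderm against hESC, and 1 of the 13 replication genes, RRM1, did so. The share of all genes with this pattern was not counted, so these counts have no background beside them. Endoderm libraries enter each of these comparisons, and the difference between steps was not tested.

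Of the 9 G1 cyclins and kinases, 2 (22.2%) passed as lower in this step without sgRNA, near the 18.0% of all genes tested. None passed as lower with the sgRNA, beside 14.9% of all genes. CCND1, CCND2, CCND3, CCNE1, CDK2, CDK4 and CDK6 did not pass in either setting. CCND2 stood at 149.7 and 108 CPM in foregut without sgRNA and 128 and 153 CPM with it, CCND1 at 42.9 and 44.1 and 48.2 and 46.9 CPM, and CCND3 at 19.03 and 17.3 and 11.2 and 15.3 CPM. CDK4 stood at 215 and 203 and 194 and 224 CPM, and CDK6 at 58.3 and 48.1 and 36.4 and 65.6 CPM. CDC25A fell to 16.4 and 8.77 CPM without sgRNA (log2 fold change -1.25 ± 0.34 SE, edgeR adjusted p = 0.0198). CCNE2 passed as lower without sgRNA (adjusted p = 0.0431, edgeR), but it held 1 and 17 reads in those foregut libraries, and 22 and 0 with the sgRNA, so that its fold depends on the prior count and is not given. CDKN1B fell to 22.5 and 13.5 CPM (log2 fold change -1.35 ± 0.35 SE, edgeR adjusted p = 0.0159) and to 16.3 and 18.9 CPM with the sgRNA (log2 fold change -1.37 ± 0.26 SE, edgeR adjusted p = 0.00631). CDKN1A stood at 10.5 and 26.3 and 10.2 and 6.402 CPM, and did not pass in either setting. The calls without sgRNA were lost for CDC25A without endoderm replicate 2 (-1.07) or foregut replicate 2 (-0.81), and for CDKN1B without endoderm replicate 1 (-0.97) or foregut replicate 2 (-0.97). CDKN1A passed as higher only without endoderm replicate 1 (2.00) or foregut replicate 1 (1.67).

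LTR5 CRISPRi was the third comparison. Reads in LTR5B integrants, scaled to gene reads, were 2.19, 2.28 and 1.59 CPM in endoderm without sgRNA and 1.02, 1.83 and 2.07 with it, and in LTR5_Hs integrants 11.3, 12.96 and 10.8 against 7.80, 9.88 and 11.8, so that both overlapped. In foregut LTR5B stood at 6.95 and 6.38 without sgRNA and at 2.92 and 2.40 with it, without overlap, while LTR5_Hs stood at 8.24 and 8.72 against 4.02 and 8.99. These sums held between 17 and 324 uniquely mapped reads per library and were not tested. No cell cycle gene passed the test in endoderm, where 0.00490% of 20407 genes were higher and 0.0294% lower, nor in foregut, where 0.0499% of 20044 genes were higher and 0.115% lower. At an unadjusted p under 0.05 (edgeR) there were 0 and 1 such genes, beside 5.18% and 3.49% of all genes tested. DESeq2 and limma voom called 0 in both tissues. In endoderm the log2 fold changes of the 45 genes lay between -0.52 (CCND1) and 0.30 (ASPM), with a median of -0.08, and in foregut between -1.14 (CDKN1A) and 0.75 (CCNE2, with the few reads given above), with a median of -0.10. CCND1 stood at 46.4, 51.5 and 40.3 CPM without and 23.1, 45.8 and 26.8 CPM with the sgRNA in endoderm (log2 fold change -0.52 ± 0.24 SE, edgeR adjusted p = 0.961). MKI67 stood at 69.6, 111 and 108 and 66.8, 104 and 81.5 CPM (log2 fold change -0.18 ± 0.22 SE, edgeR adjusted p = 0.999), and the groups overlapped for both genes. PCNA, MKI67 and TOP2A had log2 fold changes of 0.00 ± 0.34, -0.16 ± 0.37 and 0.10 ± 0.35 (SE) in foregut. The difference of the CRISPRi effect between foregut and endoderm, tested as an interaction, passed for none of the 45, beside 0.0528% and 0.141% of 22708 genes that were higher and lower. At an unadjusted p under 0.05 (edgeR) there were 2 of the 45, beside 8.23% of all genes, and DESeq2 and limma voom called 0.

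Only 2 of the 45 genes lay within 100 kb of an LTR5_Hs or LTR5B integrant, beside 11.3% of 20176 protein-coding genes. RRM2, whose annotated body spans chr2:10260825-10351851 (GRCh37), ended 1945 bp from an LTR5_Hs fragment at chr2:10353797-10353871. That distance runs from the end of the annotated body, and the start of RRM2, on the + strand, lies at its far side. The exons annotated in that body sum to 9153 bp. PLK1 lay 77213 bp from another LTR5_Hs integrant. RRM2 stood at 48, 94.01 and 95.1 CPM without and 49.5, 87.1 and 77.4 CPM with the sgRNA in endoderm (log2 fold change -0.13 ± 0.27 SE, edgeR adjusted p = 0.999), and its log2 fold change in foregut was -0.70 ± 0.39 (SE). PLK1 had log2 fold changes of -0.24 ± 0.18 in endoderm and -0.45 ± 0.46 in foregut (SE). Neither passed.

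The neighbours of these genes in the same pathways were taken from lists of 120 further genes. In endoderm against hESC, 56 of them were lower and 11 higher, beside the 18.3% and 19.6% of all genes given above. Of 33 genes of origin firing and forks, 22 were lower and none higher, led by CDC7, the kinase that fires origins (95.1 and 87.8 CPM in hESC and 21.1, 29.01 and 27.1 CPM in endoderm, log2 fold change -1.83 ± 0.20 SE, edgeR adjusted p = 2.80e-06), and RFC3, of the clamp loader (-1.65). Of 13 E2F and RB family genes 9 were lower, led by E2F8 (16.1 and 19.9 and 1.34, 3.49 and 1.72 CPM, log2 fold change -3.03 ± 0.33 SE, edgeR adjusted p = 3.80e-06). In a further list of spindle checkpoint and kinetochore genes, the largest changes that passed were lower. They were SPC25 (log2 fold change -1.64 ± 0.22 SE, edgeR adjusted p = 2.73e-05) and ZWINT (-1.08). NUF2 of that list lay the other way, at 22.8 and 23.1 CPM in hESC and 29.5, 26.2 and 29.6 CPM in endoderm. Among kinesins, condensin and chromosomal passengers 6 of 21 were lower in endoderm, led by ESPL1, the separase (-1.18), and 1 was higher, again beside 18.3% and 19.6% of all genes.

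In foregut without sgRNA, 17 of those 21 were lower than in endoderm, and 12 with the sgRNA, beside 18.0% and 14.9% of all genes. NCAPG2, a condensin subunit, stood at 50.6, 61.8 and 63.9 CPM in endoderm and 11.3 and 8.19 CPM in foregut without sgRNA (log2 fold change -2.59 ± 0.26 SE, edgeR adjusted p = 1.26e-04), and at 41.1, 64.6 and 59.6 and 11.6 and 12.5 CPM with it (log2 fold change -2.12 ± 0.28 SE, edgeR adjusted p = 0.00131), without overlap. NCAPD3 (-3.04) led without the sgRNA and NCAPD2 (-2.38) with it. Of the 7 genes of MuvB, FOXM1 and MYBL2, the regulators that bind CHR elements or act with them, 4 were lower in each setting. LIN54 (-1.81) led without the sgRNA and LIN52 (-2.17) with it. In endoderm against hESC the largest changes of this list that passed were higher, in LIN37 (1.94) and RBBP4 (0.64). FOXM1 went from 108, 164 and 171 to 42.5 and 54.2 CPM without sgRNA (log2 fold change -1.60 ± 0.27 SE, edgeR adjusted p = 0.00183), and the groups were apart. TFDP2, a partner of E2F proteins, was higher in foregut, at 64.7 and 56.2 CPM without sgRNA (log2 fold change 1.89 ± 0.22 SE, edgeR adjusted p = 2.47e-04) and 55.2 and 41.4 CPM with it (log2 fold change 1.80 ± 0.26 SE, edgeR adjusted p = 0.00201). Of 33 origin and fork genes 14 were lower and 1 higher without sgRNA, and 13 and 1 with it. ORC1, of the origin recognition complex, led both, at -2.33 and -2.49. CDKN2B (p15), an inhibitor of CDK4 and CDK6, stood at 0.149, 0.184 and 0.191 CPM in endoderm and 5.32 and 7.53 CPM in foregut without sgRNA (log2 fold change 5.18 ± 0.49 SE, edgeR adjusted p = 8.45e-05), and at 4.29 and 9.87 CPM in foregut with it (log2 fold change 4.44 ± 0.85 SE, edgeR adjusted p = 0.00673). CDKN1C (p57), a further CDK inhibitor, also passed as higher in foregut in both settings. Without sgRNA it stood at 14.97, 20.15 and 18.74 CPM in endoderm and 186.4 and 186.5 CPM in foregut. With the sgRNA it stood at 19.99, 21.38 and 25.98 CPM in endoderm and 200.1 and 94.01 CPM in foregut.

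The strand setting of the counting was not given in the sources used here, so reads of genes that overlap on opposite strands could not be told apart. A protein-coding gene lies opposite CCND1, CCNE2, CDK2, CDK4, CDKN1B, MCM7, TYMS, CCNA2, CDC25C, PLK1 and KIF20A. Non-coding genes or pseudogenes lie opposite CCND2, CCND3, CDK6, CDC25A, CDKN1A, MCM2, RRM1, RRM2, CCNB1, CCNB2, CENPF, KIF11 and KIF23, and CCND2 and BUB1B overlap a protein-coding gene on the same strand.

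The last comparison was between nuclei of the gastruloids. Of 3646 nuclei, 3422 had at least 1000 UMIs, 200 genes and at most 25% mitochondrial UMIs, with a median of 16302 UMIs. To set classes of unlike depth side by side, each of the 3197 nuclei that reached 5000 UMIs was thinned to that depth, and 225 were left out. Classes hold nuclei with a UMI of TBXT, SOX2, TBX6 or PAX3 and of none of the other three. They took in 1839 of the 3197 nuclei, while 629 held 2 or more of the 4 markers and 729 held none. TBXT marks the primitive streak and axial mesoderm, SOX2 neural and neuromesodermal progenitors, TBX6 presomitic mesoderm and PAX3 paraxial mesoderm. The TBXT nuclei also held CHRD (71.3% of nuclei), NOTO (59.3%) and SHH (38.3%), all markers of the node and notochord. The 3197 nuclei come from 1 preparation, so there is no replicate and no test, and intervals cover counting error only.

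Nuclei with at least 3 UMIs over the 21 mitotic genes made up 56.3% of 300 TBXT nuclei (exact 95% interval 50.5 to 62.0). They made up 79.9% of 164 SOX2 nuclei (72.9 to 85.7), 82.8% of 198 TBX6 nuclei (76.8 to 87.8) and 78.8% of 1177 PAX3 nuclei (76.3 to 81.1). The TBXT share was the lowest of the 4, by 22.4 percentage points against PAX3, and its interval lay apart from the others, whereas those of SOX2, TBX6 and PAX3 overlapped. The share with at least 3 UMIs over 15 genes of S phase went the same way, at 61.0% of TBXT, 90.9% of SOX2, 89.9% of TBX6 and 88.4% of PAX3 nuclei. The TBXT class was not the shallowest: median depths before thinning were 19472, 16902, 17869 and 15600 UMIs in that order. Without thinning, shares with 3 mitotic UMIs were 94.0, 97.6, 99.5 and 96.3%. Of 64 thinned nuclei with TBXT and SOX2 but neither TBX6 nor PAX3, 60.9% held 3 mitotic UMIs (47.9 to 72.9), overlapping the TBXT interval. In classes that may overlap, the share was 65.6% of 628 TBXT nuclei and 79.6% of 1644 PAX3 nuclei. A nucleus that passes this limit is not thereby dividing. No class is known to lack these genes, so the share that free RNA alone would give could not be set, and its part in these shares was not tested.

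**Figure D4:**
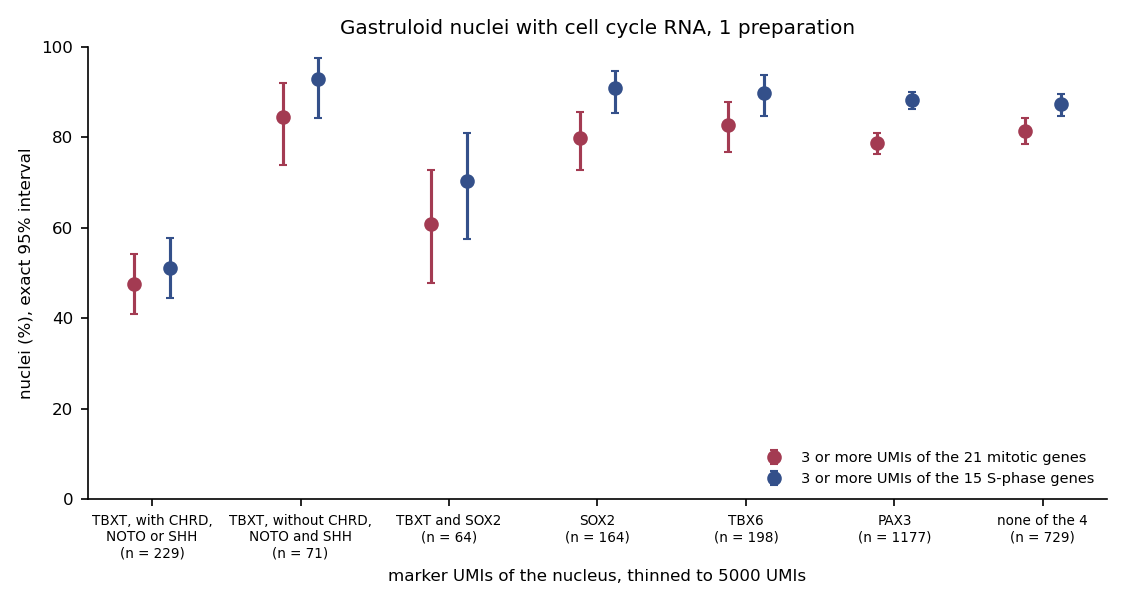
Share of nuclei (%) with at least 3 UMIs over the mitotic genes and over the S-phase genes in each class of gastruloid nuclei, thinned to 5000 UMIs; bars are exact 95% binomial intervals, for counting error in 1 preparation. TBXT nuclei with CHRD, NOTO or SHH are lowest, at 47.6 and 51.1%.

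The lower level was spread over the genes. In UMIs per 10000, 20 of 21 mitotic genes were lower in TBXT than in PAX3 nuclei, CCNB1 being the exception, and 13 of 15 S-phase genes were. In TBX6 nuclei 20 of 21 mitotic and 10 of 15 S-phase genes were higher than in PAX3 nuclei. In SOX2 nuclei 16 of 21 and 11 of 15 were. The share of all genes that differed in these directions was not counted, so these counts have no background beside them. CENPF had 2.29 UMIs per 10000 in TBXT nuclei, 4.402 in SOX2, 4.36 in TBX6 and 3.66 in PAX3 nuclei. TOP2A had 1.6, 2.89, 2.67 and 2.25 in the same order, and ASPM 1.03, 1.67, 2.05 and 1.703. In these genes the TBXT class was the lowest of the 4. CENPE, a kinetochore motor, had 0.807 in TBXT and 1.27 in PAX3 nuclei, and CCNB1 1.49 and 1.37. Of the S-phase genes, PCNA had 1.57 in TBXT, 2.56 in SOX2, 2.45 in TBX6 and 2.399 in PAX3 nuclei. MCM7 had 1.33 in TBXT and 1.67 in PAX3 nuclei, TYMS 1.33 and 1.59, RRM1 0.793 and 1.27, and MCM3 0.993 and 1.33. The TBXT value was the lower one for each. MKI67 was found in 39.5% of nuclei with at least 3 UMIs of the other mitotic genes and in 8.93% of those with fewer.

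After these values were seen, the TBXT nuclei were divided by a UMI of CHRD, NOTO or SHH. Of the 229 with one, 47.6% held at least 3 mitotic UMIs (41.0 to 54.3), and of the 71 without, 84.5% did (74.0 to 92.0). The S-phase shares were 51.1% and 93.0%. The mitotic interval of the 71 overlapped that of the PAX3 class, but their mean mitotic UMIs per 10000 were higher, at 28.1 against 20.3. In these 71, 20 of 21 mitotic and 13 of 15 S-phase genes were higher than in PAX3 nuclei. The share of all genes was not counted. Among nuclei without TBXT the same genes went with a smaller gap: 71.3% of 356 nuclei with CHRD, NOTO or SHH and 82.3% of 2213 without held 3 mitotic UMIs. Since the division was chosen on these nuclei, it is a description only.

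The G1 regulators did not share 1 order. Mean UMIs per 10000 over the mitotic genes were 10.3 in TBXT nuclei with CHRD, NOTO or SHH, 28.1 in TBXT nuclei without and 20.3 in PAX3 nuclei. CDK4 and CDK6 had that order of classes, and CCND1 and CCND2 did not. CCND1 had 2.34 UMIs per 10000 in TBXT nuclei with CHRD, NOTO or SHH, 0.6197 in TBXT nuclei without and 0.4503 in PAX3 nuclei. CCND2 had 2.62, 1.32 and 1.55 in the same order. Both were highest where the mitotic and S-phase genes were lowest. CDK6 had 0.157, 1.24 and 1.19, lowest in TBXT nuclei with CHRD, NOTO or SHH. CDK4 had 1.17, 1.52 and 1.41, a narrower range. CDKN1A and CDKN1B were sparse, with a UMI in 1.06% and 7.19% of the thinned nuclei.

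**Figure D5:**
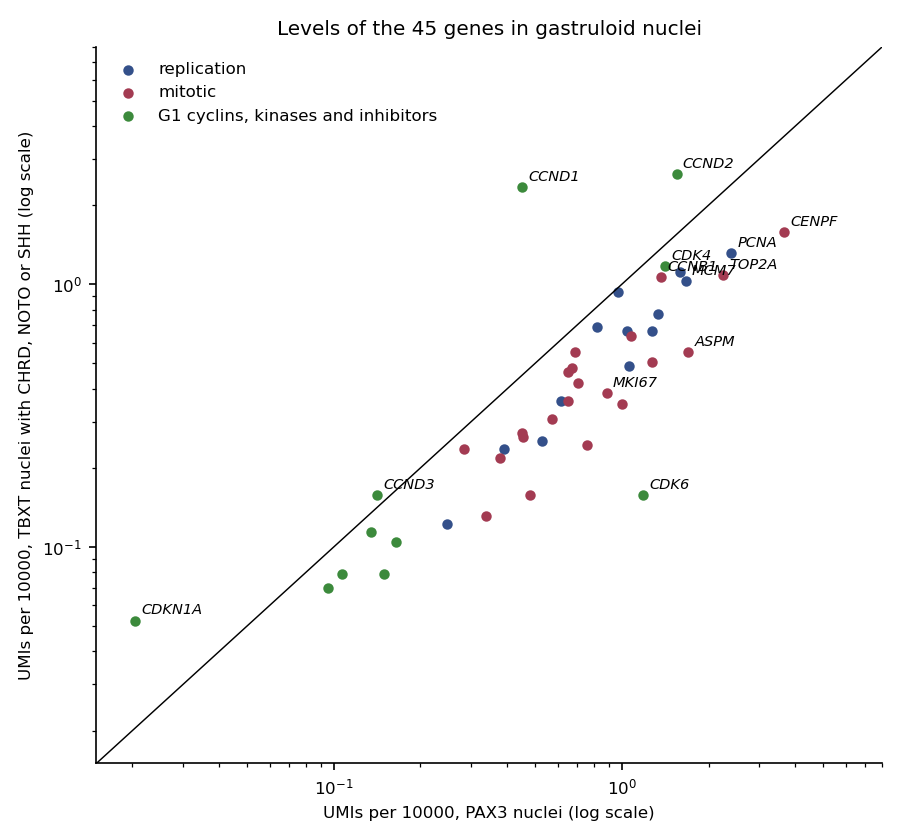
UMIs per 10000 of each gene in TBXT nuclei with CHRD, NOTO or SHH against PAX3 nuclei, both axes on a log scale, with the line of equal values. The mitotic and replication genes lie below the line, and CCND1, CCND2, CCND3 and CDKN1A lie above it.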

How the data were processed

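The genes and lists were chosen with earlier results of these data known. The bulk tables deposited by the authors hold raw counts for genes and for integrants of transposable elements, made with HISAT2 on GRCh37 (hg19) and featureCounts from reads that mapped to 1 place. The gastruloid tables deposited by the authors, from cellranger-arc on GRCh38, hold UMI counts of 17493 genes by nucleus, and peak positions. Reads per library, given in the report, set the precision, and intervals cover counting error only.

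Groups were taken from the titles and labels. Each comparison was fitted on its own groups with edgeR 4.0.16 (quasi-likelihood test, TMM) in R 4.3.3, for genes with at least 3 reads in 1 sample, 2-sided, with p adjusted over all genes tested (Benjamini-Hochberg). CPM use TMM factors over the 12 libraries. The fit recovered known changes in simulated counts. Values are given for MKI67, TOP2A, PCNA, CDK inhibitors, D and E cyclins, CDK4 and CDK6, and for up to 2 passing genes with the largest change per list and comparison, and the 5 mitotic and 5 S-phase genes with the most UMIs. Other genes named, such as those that did not pass, were chosen after their values were seen. Lists are described by counts. Nuclei were filtered, thinned and counted with python 3.11.15 and scanpy 1.11.5, Scrublet marked 70 (2.05%), which stayed in, and plots were drawn with matplotlib 3.10.9. Alternatives were DESeq2 1.42.0, limma 3.58.1 (voom), other scaling and filters, a replicate block and leaving out each library.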

Additional observations from a re-analysis of the deposited data

How the results depend on the processing

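Of 56 named fold changes, 40 kept their direction and side of the threshold under every alternative, and the counts of 0 genes after CRISPRi stayed at 0 in all. Counts over the comparisons changed with the threshold or with 1 library: requiring a fold over 2 left 2 of the 7 mitotic genes lower in endoderm against hESC, and 4 replication genes in place of 7 were lower in foregut without sgRNA when endoderm control replicate 2 was left out. Leaving out each library in turn gave 20 to 30 genes passing in endoderm against hESC, with 10 replication and 5 to 8 mitotic genes lower, 18 to 30 in foregut without sgRNA, with 4 to 9 and 13 to 19, and 18 to 25 in the CRISPRi lines, with 5 to 7 and 12 to 16. Uncalled values changed sign when libraries were left out in turn. In endoderm against hESC, MKI67 ranged from -0.25 (without hESC replicate 1) through -0.02 (without endoderm control replicate 2) to 0.56, and TOP2A from -0.21 to 0.021 (without hESC replicate 2). In foregut without sgRNA, PCNA ranged from -0.064 (without foregut control replicate 1) to 0.66, and CCND1 from -0.17 to 0.050 (without endoderm control replicate 2). The cause was not tested. With the replicate number as a block, 26 genes passed in endoderm against hESC, 27 in foregut without sgRNA and 26 in the CRISPRi lines, against 27, 27 and 20 without it, and none after CRISPRi. The block ended the call of CDK6 in endoderm (0.62, adjusted p = 0.0573, edgeR). The labels give no shared culture for equal numbers. Deviations of same-numbered libraries from their group means correlated at 0.138 to 0.170 in the 2 comparisons of foregut with endoderm, which have only 2 pairs each, at 0.0338 and 0.0412 in endoderm against hESC, from -0.0399 to 0.0051 after CRISPRi in endoderm and at -0.206 in foregut, and the numbers were not taken as pairs. Crossing the numbers of the foregut CRISPRi libraries left 0 genes passing. Further calls were lost without 1 library. In endoderm against hESC these were CDKN1A, CDKN1B, CCND3, CCNE2 and CDK6 without either hESC library, CCNB1 without hESC replicate 1 (-0.80, adjusted p = 0.0887, edgeR), CDK6 without endoderm control replicate 2 or 3, and CDKN1A without endoderm control replicate 1, by limma voom (adjusted p = 0.103) or with at least 10 reads in all (adjusted p = 0.0529, edgeR). In foregut without sgRNA they were MKI67, CDC25A, CDKN1B and KIF23, as given above, and CCNE2 without endoderm control replicate 2 or 3 or foregut control replicate 1. PCNA passed there as higher without foregut control replicate 2 (0.66, adjusted p = 0.0489, edgeR). In nuclei the TBXT share minus the PAX3 share was -8.38 percentage points with 1 UMI as the limit, -16.4 with 2 and -14.0 for classes that may overlap, the TBX6 difference was 10.5 with a limit of 5 UMIs, and the SOX2 difference was 11.6 after thinning to 3000 UMIs. Depth limits single nuclei, with a median of 7 mitotic UMIs after thinning.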

Other observations

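The anaphase-promoting complex is the ubiquitin ligase that ends mitosis. In endoderm against hESC 9 of 16 genes of the complex and its regulators were lower and 1 was higher, beside 18.3% and 19.6% of all genes tested. ANAPC4, a scaffold subunit, stood at 45.97 and 34.4 CPM in hESC and 13.3, 15.6 and 15.3 CPM in endoderm (log2 fold change -1.45 ± 0.21 SE, edgeR adjusted p = 5.41e-05). FZR1, the activator of the complex in G1, was the higher one, at 17.1 and 18.5 and 37.5, 42.3 and 44.2 CPM (log2 fold change 1.22 ± 0.20 SE, edgeR adjusted p = 1.97e-04). Neither overlapped between groups. FBXO5, an inhibitor of the complex, went from 28.4, 31.03 and 28.7 CPM in endoderm to 10.1 and 4.05 CPM in foregut without sgRNA (log2 fold change -2.06 ± 0.38 SE, edgeR adjusted p = 0.00327), and from 12.7, 27.3 and 34.2 to 4.71 and 1.01 CPM with it (log2 fold change -3.02 ± 0.71 SE, edgeR adjusted p = 0.0162), again without overlap. UBE2S, the enzyme that extends its ubiquitin chains, went from 193, 175 and 176 to 79.8 and 40.95 CPM in the CRISPRi lines (log2 fold change -1.51 ± 0.32 SE, edgeR adjusted p = 0.0102).

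Of 12 targets of p53 in the lists, 4 were higher and 2 lower in endoderm against hESC, beside 19.6% and 18.3% of all genes tested, so that the counts set no direction for the list. GADD45A stood at 2.52 and 4.06 CPM in hESC and 45.5, 20.3 and 35.6 CPM in endoderm (log2 fold change 3.36 ± 0.35 SE, edgeR adjusted p = 2.20e-06), and BBC3 at 2.52 and 3.82 and 27.96, 11.8 and 12.7 CPM (log2 fold change 2.46 ± 0.38 SE, edgeR adjusted p = 1.02e-04). Both separated the groups. In foregut TP53INP1 was higher in both settings, at 6.96, 4.91 and 3.06 CPM in endoderm and 30.9 and 22.8 CPM in foregut without sgRNA (log2 fold change 2.42 ± 0.36 SE, edgeR adjusted p = 0.00104), and at 4.08, 6.77 and 7.48 and 23.3 and 55.3 CPM with it (log2 fold change 2.74 ± 0.42 SE, edgeR adjusted p = 0.00264).

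CDKN2C (p18), another CDK4 and CDK6 inhibitor, was at 0 in both hESC libraries, at 2.49, 1.01 and 1.72 CPM in endoderm without sgRNA and at 0.0657 and 0 CPM in foregut without it, and no fold is given because hESC held no read. In gastruloid nuclei CDKN1C (p57) had 1.49 UMIs per 10000 in TBXT nuclei with CHRD, NOTO or SHH and 0.348 in PAX3 nuclei, in 1 preparation and with no test.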
